A study of Homo sapiens with 12 samples.

Results

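The Wnt pathway genes described here encode a ligand, 4 receptors or co-receptors, 3 antagonists at the cell surface or outside the cell, a feedback scaffold and a nuclear effector. They were taken by gene symbol and are WNT5A, FZD6, LRP5, LRP6, LGR4, DKK1, RNF43, ZNRF3, AXIN2 and TCF7L2. They are 10 of the 60617 gene identifiers in each deposited table, and all 10 passed the filter on low counts that left 21581 genes to test. RNA was sequenced from A549 cells, an established human lung adenocarcinoma line, to follow expression that depends on the transcriptional coactivators YAP and TAZ. The 3 groups were made by siRNA transfection, and RNA was taken 24 hours later.

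Cells of the siYAP/TAZ#1 and siYAP/TAZ#2 groups received either of 2 different siRNA combinations, each aimed at YAP (gene YAP1) and TAZ (gene WWTR1) together. The siCo cells received a control siRNA, which the treatment label calls NTC. Each group had 4 libraries, which the series calls biological replicates. The labels used do not say how those replicates were separated, so the p-values measure the spread between these libraries. All groups are the same line in the same medium with serum, so nothing here bears on other cells. Each combination targets both coactivators, so the part of YAP and the part of TAZ cannot be told apart, and the siRNA sequences are not used here.

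In the canonical Wnt pathway, a ligand bridges a frizzled receptor and the co-receptor LRP5 or LRP6, the complex that degrades beta-catenin is held back, and beta-catenin then acts on genes with TCF/LEF factors. Secreted dickkopf proteins block LRP5 and LRP6. The ubiquitin ligases RNF43 and ZNRF3 remove frizzleds from the membrane, while R-spondins that bind LGR4 hold those ligases back. AXIN2, RNF43, ZNRF3 and DKK1 are widely used as beta-catenin target genes that feed back on the pathway, and YAP and TAZ have been described in contact with the axin complex in other cells.

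DKK1 and RNF43 were the 2 genes of the 10 whose 3 groups of libraries did not overlap at all. They moved in opposite directions, and the DNA around their starts is shown. How many of all genes tested separate as fully was not counted, so this does not set the 2 genes apart from other genes. The sequences are RefSeq windows on GRCh38.p14 from 250 bases before to 50 bases after an annotated start, written 5′ to 3′ on the gene's strand. Capitals mark 3 kinds of short word searched on both strands, GGAATG (recognised by TEAD factors, the DNA-binding partners of YAP and TAZ), CTTTGAT or CTTTGAA (TCF/LEF factors) and TGANTCA (AP-1). The DKK1 window is chr10:52314031-52314330 on the plus strand, and the RNF43 windows are chr17:58417485-58417784 (promoter 1) and chr17:58402672-58402971 (promoter 2), both on the minus strand.
DKK1: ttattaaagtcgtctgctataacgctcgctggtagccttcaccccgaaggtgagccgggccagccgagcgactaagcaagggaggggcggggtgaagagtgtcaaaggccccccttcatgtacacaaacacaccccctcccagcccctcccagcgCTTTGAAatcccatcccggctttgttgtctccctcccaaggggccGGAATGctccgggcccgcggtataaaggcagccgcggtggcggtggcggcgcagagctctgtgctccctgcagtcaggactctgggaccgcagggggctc
RNF43 promoter 1: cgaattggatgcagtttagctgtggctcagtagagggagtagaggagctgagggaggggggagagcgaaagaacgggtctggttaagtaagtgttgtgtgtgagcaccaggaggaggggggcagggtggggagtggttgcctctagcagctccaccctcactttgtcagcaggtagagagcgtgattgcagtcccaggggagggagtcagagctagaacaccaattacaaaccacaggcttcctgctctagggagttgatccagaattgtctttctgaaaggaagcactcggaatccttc
RNF43 promoter 2: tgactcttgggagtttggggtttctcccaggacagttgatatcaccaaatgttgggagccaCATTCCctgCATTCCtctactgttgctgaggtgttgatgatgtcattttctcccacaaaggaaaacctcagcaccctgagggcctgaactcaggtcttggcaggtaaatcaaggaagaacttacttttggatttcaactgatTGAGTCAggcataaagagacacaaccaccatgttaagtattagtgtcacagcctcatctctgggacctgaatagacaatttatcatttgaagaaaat

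The DKK1 window held GGAATG with its first base at position -50 from the start and CTTTGAA at position -95, and no word overlapped another. Promoter 1 of RNF43 held none of the words, and promoter 2 held GGAATG on the opposite strand (read above as CATTCC) at positions -189 and -180 and TGANTCA at -47. A table of such windows matched 6 of the 10 genes in 10 windows, those of DKK1, RNF43, LRP5, LGR4, TCF7L2 and WNT5A. Windows on chromosome 8, where FZD6 lies, were left out, so FZD6 could not be matched. None of the words stood in the windows of LRP5, LGR4, TCF7L2 or WNT5A. Of 35116 windows of the same length over all genes, 14% held GGAATG, 6.86% a TCF/LEF word and 7.71% TGANTCA. These are matches of letters in short windows, and binding was not measured.

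Both target genes were low in every library of either combination. YAP1 was at 18.7 ± 1.43 CPM with siYAP/TAZ#1 and 17.4 ± 1.19 CPM with siYAP/TAZ#2, against 121 ± 4.03 CPM in siCo, and WWTR1 was at 32.9 ± 1.14, 32.4 ± 2.38 and 241 ± 9.71 CPM in the same order of groups (CPM, counts per 1e6 after TMM scaling, mean ± SD, n = 4 each). The estimated counts of a library, divided by 1e6, summed to 29.6 to 38.3. The 8 epithelial and A549 markers summed to 4235 to 6486 TPM (transcripts per 1e6) with siYAP/TAZ#1, 3973 to 6183 TPM with siYAP/TAZ#2 and 3289 to 4877 TPM in siCo. Markers of immune, endothelial and fibroblast cells summed to 43.7 to 67.9, 36.8 to 61.4 and 28.0 to 41.9 TPM, with 6 of 8 below 1 TPM in each group. The others were COL1A1 (means of 35.5, 29.2 and 21.5 TPM) and CD68 (15.0, 17.5 and 13.7 TPM). COL1A1 was called higher with siYAP/TAZ#1 (log2 fold change 0.47, edgeR adjusted p = 0.00291) and not with siYAP/TAZ#2 (0.09, adjusted p = 0.561). CDH5 and DCN did not pass the low-count filter. Replicate 1 of siYAP/TAZ#2 lay furthest from the rest of its group for LRP5, LRP6, ZNRF3, FZD6 and AXIN2. In CPM its gap exceeded Dixon's critical value for LRP6 and FZD6 alone. The changes of all the genes just named with siYAP/TAZ#2 are given with and without that replicate. Genes of up to 200 bases held between 27.8% and 63.7% of a library's TPM but 0.996% to 4.41% of its counts, so TPM values are not level between libraries, and comparisons use counts.

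Relative to siCo, siYAP/TAZ#1 cells had higher LRP5, LRP6, RNF43 and ZNRF3 and lower DKK1, FZD6 and WNT5A. SiYAP/TAZ#2 cells had higher LRP5, RNF43 and ZNRF3 and lower DKK1, AXIN2, FZD6 and TCF7L2. A gene was called where edgeR's quasi-likelihood test gave a Benjamini-Hochberg adjusted p under 0.05 over all genes tested. By that rule 7 of the 10 genes were called with siYAP/TAZ#1, 4 higher and 3 lower, beside 34.9% of all genes tested, 16.4% higher and 18.5% lower. With siYAP/TAZ#2, 7 were called too, 3 higher and 4 lower, beside 38.2% of all genes, 19% higher and 19.2% lower. Between the combinations, 5 of the 10 were lower with siYAP/TAZ#2 than with siYAP/TAZ#1 and 0 were higher (0 at an unadjusted p under 0.05 too, and 0 by DESeq2), beside 15.1% of all genes, 8.2% higher and 6.92% lower. Without replicate 1 of siYAP/TAZ#2, 6 of the 10 were lower, and over all genes 2840 higher and 2287 lower genes were called of 22166 tested, against 1769 and 1493 of 21581 with it. Well measured genes are called more often, and 9 of the 10 averaged at least 5 CPM, where 50.4%, 53.8% and 24.6% of genes were called in the same comparisons. The median log2 fold change of the 10 was 0.02 with siYAP/TAZ#1, -0.23 with siYAP/TAZ#2 and -0.25 between the combinations, and that of all genes was 0.02, 0.02 and 0.01. Both comparisons with siCo share its 4 libraries, so their values are given side by side. In bulk RNA, fewer cells that express a gene and less of its RNA per cell cannot be told apart.

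**Figure D1:**
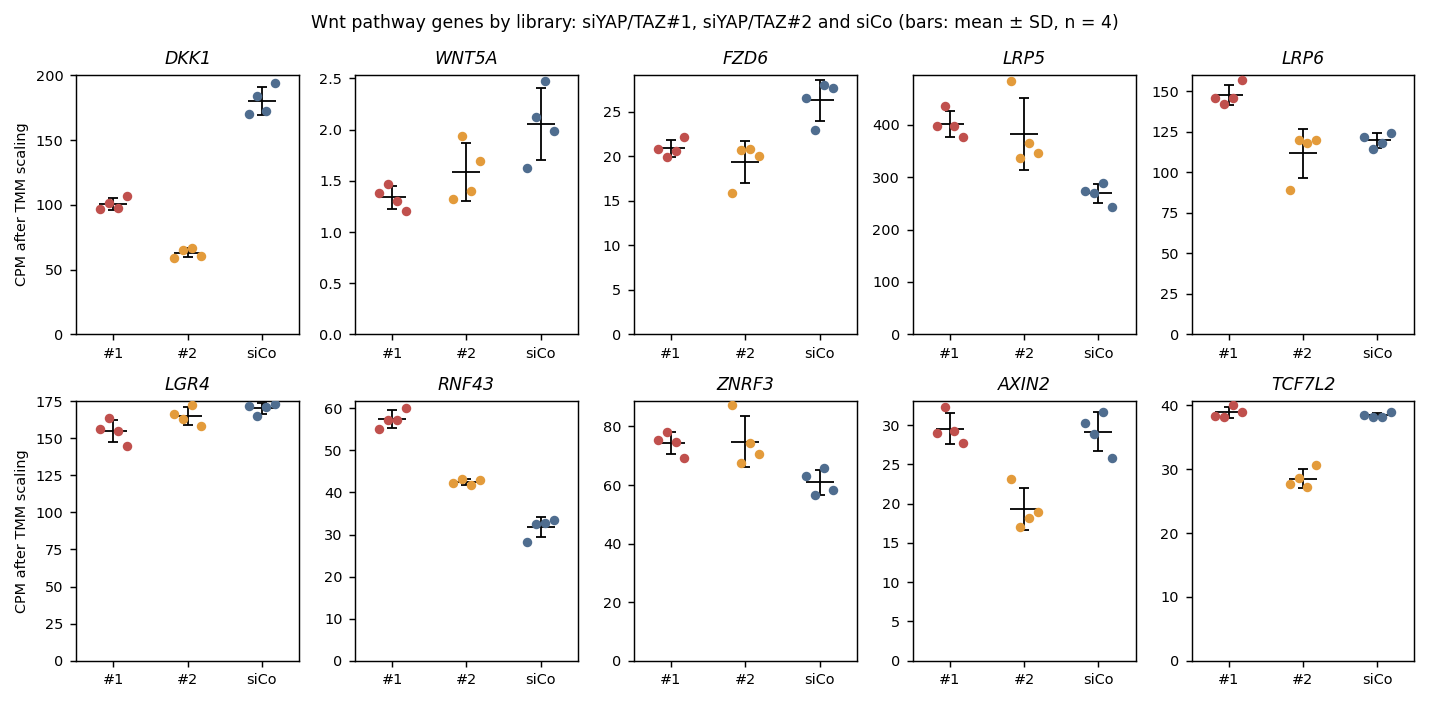
Level of each of the 10 genes in CPM after TMM scaling (vertical axes, linear from 0) in siYAP/TAZ#1, siYAP/TAZ#2 and siCo, with 1 point per library and bars for the mean ± SD (n = 4). DKK1 lies in 3 separate bands with siCo at 170.3 to 194 CPM on top, RNF43 lies in 3 bands with siCo at 28.3 to 33.5 CPM at the bottom, and in the TCF7L2 and AXIN2 panels every siYAP/TAZ#2 point lies below the other groups.

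WNT5A (ENSG00000114251, chr3:55465715-55490539, minus strand), a ligand best known for signalling without beta-catenin, was the least abundant of the 10 genes. It had 43 to 52 estimated counts in siYAP/TAZ#1 libraries, 42 to 65 in siYAP/TAZ#2 libraries and 53 to 70 in siCo libraries. After scaling, the siYAP/TAZ#1 libraries stood at 1.38, 1.46, 1.30 and 1.21 CPM, the siYAP/TAZ#2 libraries at 1.33, 1.94, 1.40 and 1.69 CPM, and the siCo libraries at 1.62, 2.13, 2.48 and 1.99 CPM. Every siYAP/TAZ#1 library lay below every siCo library, while siYAP/TAZ#2 overlapped siCo. WNT5A fell by 0.61 ± 0.18 on the log2 scale with siYAP/TAZ#1 (SE, adjusted p = 0.0137). That call was lost without the low-count filter (adjusted p = 0.0552), with library size alone (0.0814), with gene length offsets (0.0858), on TPM rescaled over coding genes (-0.26, 0.178) and on the deposited log2(TPM + 1) (-0.10, 0.514). The siYAP/TAZ#2 value was -0.37 ± 0.18 (adjusted p = 0.122, 95% interval -0.74 to 0.01), and the difference between the combinations was 0.25 (interval -0.14 to 0.63, adjusted p = 0.460).

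FZD6 (ENSG00000164930, chr8:103298433-103332866, plus strand) is a frizzled receptor. It stood at 20.8, 19.97, 20.6 and 22.2 CPM in siYAP/TAZ#1 libraries, at 15.9, 20.7, 20.9 and 20.1 CPM in siYAP/TAZ#2 libraries and at 26.5, 23.01, 28.0 and 27.6 CPM in siCo libraries. Each treated library lay below each siCo library, and replicate 1 of siYAP/TAZ#2 was the lowest of the 12. FZD6 fell by 0.33 ± 0.089 with siYAP/TAZ#1 (log2, adjusted p = 0.00804) and by 0.44 ± 0.090 with siYAP/TAZ#2 (adjusted p = 9.55e-04) after TMM scaling, with no call on library size alone (-0.16 and -0.25) or on TPM rescaled over coding genes (-0.22 and -0.27), and values of 0.00 and 0.01 on the deposited TPM (log2 of TPM + 1). Without replicate 1 the siYAP/TAZ#2 change was -0.35, still called. The combinations were not called different (-0.11, interval -0.30 to 0.08).

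LRP5 and LRP6 are the paired co-receptors of the frizzleds, and LRP5 was called higher with both combinations and LRP6 with siYAP/TAZ#1. LRP5 (ENSG00000162337, chr11:68312609-68449275, plus strand) stood at 397, 435, 397 and 376 CPM with siYAP/TAZ#1, at 483, 336, 364 and 345 CPM with siYAP/TAZ#2 and at 274, 269, 289 and 244 CPM in siCo. Every treated library exceeded every siCo library, and replicate 1 of siYAP/TAZ#2 was the highest of all. LRP5 rose with siYAP/TAZ#1 by 0.58 ± 0.098 (log2, adjusted p = 2.14e-04) and with siYAP/TAZ#2 by 0.51 ± 0.098 (adjusted p = 5.75e-04), or 0.38 without that replicate, still called. On the deposited log2(TPM + 1) these changes were 0.96 and 0.86, both called. The difference between the combinations was -0.07 with all libraries (interval -0.28 to 0.14, adjusted p = 0.745) and -0.20 ± 0.057 without replicate 1, which was called (adjusted p = 0.0166).

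LRP6 (ENSG00000070018, chr12:12116025-12267012, minus strand) stood at 146, 142, 146 and 157 CPM with siYAP/TAZ#1, at 89.2, 120, 118 and 120 CPM with siYAP/TAZ#2 and at 122, 114, 118 and 124 CPM in siCo. The siYAP/TAZ#1 libraries lay above all others, and 3 of the 4 siYAP/TAZ#2 libraries lay within the siCo range. LRP6 rose by 0.30 ± 0.081 with siYAP/TAZ#1 (log2, adjusted p = 0.00787). That change was 0.48 with library size alone, 0.52 with gene length offsets and 0.63 on TPM rescaled over coding genes, all called, and 0.82 on the deposited log2(TPM + 1), where the call was lost (adjusted p = 0.0623). The siYAP/TAZ#2 value was -0.10 ± 0.081 (interval -0.27 to 0.07, adjusted p = 0.385) and was 0.00 without replicate 1. The log2 fold change of siYAP/TAZ#2 over siYAP/TAZ#1 was -0.40 ± 0.081 (adjusted p = 0.00231), a call that also held without replicate 1 at -0.30.

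LGR4 (ENSG00000205213, chr11:27365961-27472775, minus strand) is a receptor of R-spondins, and it was not called in any of the 3 comparisons. Its values were 156, 163, 155 and 145 CPM in siYAP/TAZ#1 libraries, 167, 163, 172 and 158 CPM in siYAP/TAZ#2 libraries and 172, 165, 171 and 173 CPM in siCo libraries. All siYAP/TAZ#1 libraries lay below the lowest siCo library, but the log2 difference of -0.14 ± 0.053 missed the threshold (interval -0.25 to -0.02, adjusted p = 0.0582). It was called by DESeq2 on the same counts (-0.14, adjusted p = 0.0370) and without replicate 2 of siYAP/TAZ#1 (-0.16, adjusted p = 0.0459), and its sign turned with library size alone (0.04), with length offsets (0.03) and on the deposited TPM (0.36). SiYAP/TAZ#2 gave -0.05 (interval -0.16 to 0.07, adjusted p = 0.553), and the combinations differed by 0.09 (interval -0.02 to 0.20).

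**Figure D2:**
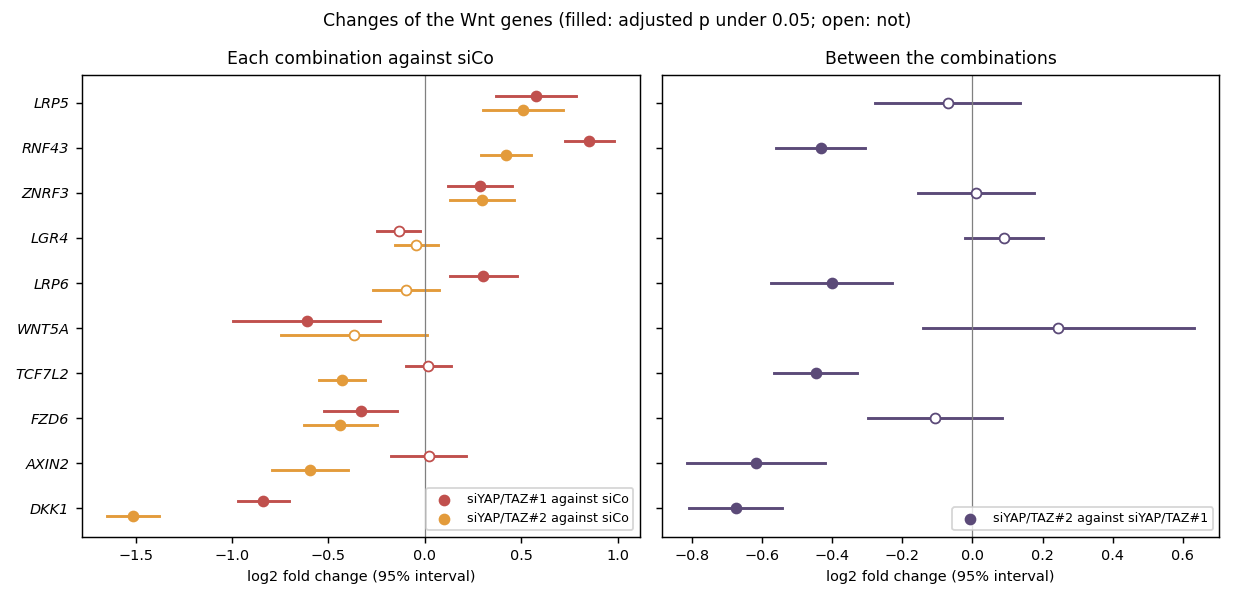
Log2 fold change of each gene with its 95% interval (horizontal axes), left for each combination against siCo and right for siYAP/TAZ#2 against siYAP/TAZ#1, filled where the adjusted p was under 0.05. LRP5, RNF43 and ZNRF3 lie right of 0 and DKK1 and FZD6 left of 0 with both combinations, and the 5 filled points of the right panel all lie left of 0.

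DKK1 (ENSG00000107984, chr10:52314296-52318042, plus strand), the secreted inhibitor of LRP5 and LRP6, had the largest change of the 10 genes with siYAP/TAZ#2. It stood at 96.6, 102, 98.0 and 107 CPM in siYAP/TAZ#1 libraries, at 59.2, 65.4, 67.0 and 60.9 CPM in siYAP/TAZ#2 libraries and at 170.3, 184, 172 and 194 CPM in siCo libraries. The 3 groups did not overlap, with siYAP/TAZ#2 lowest and siCo highest. DKK1 fell by 0.84 ± 0.062 on the log2 scale with siYAP/TAZ#1 (adjusted p = 3.56e-08) and by 1.51 ± 0.063 with siYAP/TAZ#2 (adjusted p = 4.47e-11). These are folds of 0.560 and 0.350 over siCo. The log2 fold change of siYAP/TAZ#2 over siYAP/TAZ#1 was -0.68 ± 0.062 (adjusted p = 8.96e-07). Leaving out any 1 library gave -0.87 to -0.80, -1.54 to -1.47 and -0.70 to -0.64 in these comparisons. On the deposited TPM the siYAP/TAZ#1 change was -0.51 and was not called (adjusted p = 0.184), nor was the difference between the combinations (-0.54, adjusted p = 0.596).

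RNF43 (ENSG00000108375, chr17:58352500-58417595, minus strand) and ZNRF3 (ENSG00000183579, chr22:28883592-29057487, plus strand), the ligases that clear frizzleds from the membrane, both rose. RNF43 stood at 55.0, 57.2, 57.3 and 60.2 CPM with siYAP/TAZ#1, at 42.2, 43.2, 41.8 and 42.9 CPM with siYAP/TAZ#2 and at 28.3, 32.6, 32.7 and 33.5 CPM in siCo. These groups were also free of overlap, here with siYAP/TAZ#1 highest and siCo lowest. RNF43 rose by 0.85 ± 0.061 (log2, adjusted p = 2.30e-08) and 0.42 ± 0.061 (adjusted p = 4.11e-05), and siYAP/TAZ#2 was lower than siYAP/TAZ#1 (-0.43 ± 0.060, adjusted p = 7.33e-05). On the deposited log2(TPM + 1) the siYAP/TAZ#2 change was 0.73, called with the low-value filter (adjusted p = 0.0302) and not without it (adjusted p = 0.0693).

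ZNRF3 stood at 75.3, 78.2, 74.6 and 69.2 CPM with siYAP/TAZ#1, at 87.2, 67.4, 74.2 and 70.5 CPM with siYAP/TAZ#2 and at 63.2, 56.6, 65.7 and 58.2 CPM in siCo. The treated libraries all exceeded the siCo libraries by a small margin, since the lowest treated library had 67.4 CPM and the highest siCo library 65.7 CPM. ZNRF3 rose by 0.29 ± 0.078 (log2, adjusted p = 0.00877) and 0.30 ± 0.078 (adjusted p = 0.00645), and the difference between the combinations was 0.01 (interval -0.16 to 0.18). Without replicate 1 of siYAP/TAZ#2, that difference was -0.06 and the change against siCo was 0.22, still called. On the deposited log2(TPM + 1) the changes were 0.59, no longer called (adjusted p = 0.0518), and 0.66 (adjusted p = 0.0213), and with library size alone they were 0.46 and 0.48, both called.

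AXIN2 (ENSG00000168646, chr17:65528563-65561647, minus strand), a scaffold of the destruction complex and a much used reporter of beta-catenin activity, was called lower with siYAP/TAZ#2. It stood at 29.003, 32.3, 29.3 and 27.7 CPM with siYAP/TAZ#1, at 23.1, 16.97, 18.2 and 19.0 CPM with siYAP/TAZ#2 and at 30.3, 28.9, 31.6 and 25.9 CPM in siCo. The siYAP/TAZ#1 and siCo libraries overlapped, and all siYAP/TAZ#2 libraries lay below both. AXIN2 fell by 0.60 ± 0.093 (log2, adjusted p = 8.76e-05) with siYAP/TAZ#2. The siYAP/TAZ#1 value was 0.02 ± 0.092 (interval -0.17 to 0.21, adjusted p = 0.894). The difference between the combinations itself was -0.62 ± 0.093 (adjusted p = 1.71e-04). Without replicate 1 of siYAP/TAZ#2 these changes were -0.69 and -0.71, both called. On the deposited TPM the siYAP/TAZ#2 change was -0.17 and not called (adjusted p = 0.521).

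TCF7L2 (ENSG00000148737, chr10:112950250-113167678, plus strand) is a DNA-binding partner of beta-catenin. It stood at 38.4, 38.1, 40.1 and 39.02 CPM with siYAP/TAZ#1, at 27.7, 28.7, 27.3 and 30.6 CPM with siYAP/TAZ#2 and at 38.5, 38.2, 38.1 and 38.95 CPM in siCo. The siYAP/TAZ#1 libraries overlapped siCo, and all siYAP/TAZ#2 libraries stood below both. TCF7L2 fell by 0.43 ± 0.056 with siYAP/TAZ#2 (log2, adjusted p = 1.28e-05), but that change was -0.19 and not called on TPM rescaled over coding genes and 0.10 on the deposited TPM. With siYAP/TAZ#1 the value was 0.02 ± 0.055 (interval -0.10 to 0.13, adjusted p = 0.851). Between the combinations it was -0.45 ± 0.055 (adjusted p = 2.31e-05), or -0.28 and not called on rescaled TPM (adjusted p = 0.0888).

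**Figure D3:**
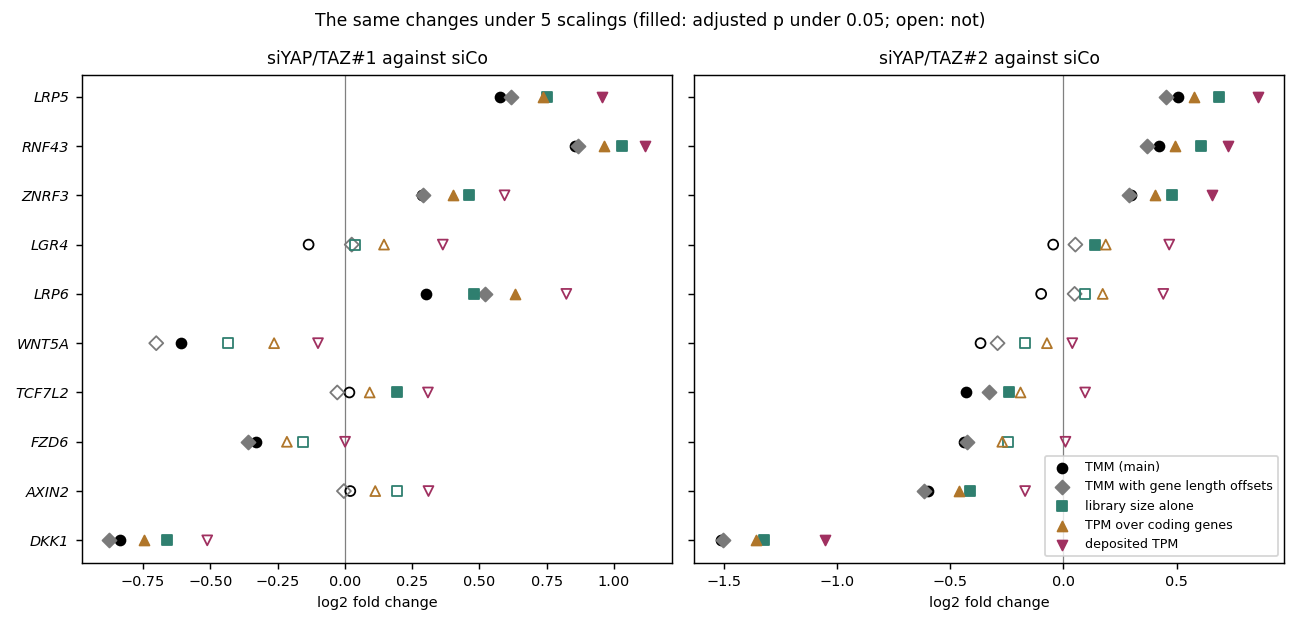
Log2 fold change of each gene (horizontal axes) with siYAP/TAZ#1 (left) and siYAP/TAZ#2 (right) against siCo under 5 scalings, filled where the adjusted p was under 0.05. LRP5 and RNF43 are filled and right of 0 under all 5 with both combinations. DKK1 is left of 0 under all 5 and open only on the deposited TPM with siYAP/TAZ#1. FZD6, LGR4 and TCF7L2 with both combinations, AXIN2 with siYAP/TAZ#1, and LRP6 and WNT5A with siYAP/TAZ#2 move to or across 0.

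The scaling between libraries moved all genes in 1 direction and the 10 genes with them. With library size alone the median log2 fold change of all genes was 0.20 with siYAP/TAZ#1 and 0.21 with siYAP/TAZ#2, against 0.02 with TMM. Higher genes made up 46.9% and 49.7% of all calls with TMM, 75.5% and 76.2% with library size alone, and 91.8% and 94.7% on the deposited TPM. Under library size alone, 5 of the 10 genes were called higher and 1 lower with siYAP/TAZ#1, and 4 higher and 3 lower with siYAP/TAZ#2. None of the 5 calls between the combinations was kept by limma on the deposited log2(TPM + 1), where DKK1 was -0.54, AXIN2 -0.48, RNF43 -0.39, LRP6 -0.38 and TCF7L2 -0.21 (smallest adjusted p = 0.473). Which scaling is nearest to RNA per cell was not tested.

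TPM divides by gene length and so allows levels to be compared between genes within a library. DKK1 averaged 55.5 ± 13.7 TPM with siYAP/TAZ#1, 38.5 ± 11.5 TPM with siYAP/TAZ#2 and 79.5 ± 18.2 TPM in siCo. LRP5 averaged 80.5 ± 14.3, 75.0 ± 11.9 and 40.9 ± 6.01 TPM in the same groups. LRP5 was thus above DKK1 in 4 of 4 libraries of each combination and below it in 4 of 4 siCo libraries. LGR4 followed at 30.6 ± 4.96, 33.6 ± 9.60 and 23.6 ± 4.28 TPM, TCF7L2 at 21.3 ± 5.85, 18.3 ± 5.17 and 16.8 ± 2.83 TPM and LRP6 at 21.3 ± 6.54, 16.5 ± 6.44 and 11.5 ± 2.94 TPM. TCF7L2 was above LRP6 in 1 of 4 siYAP/TAZ#1 libraries, 3 of 4 siYAP/TAZ#2 libraries and 4 of 4 siCo libraries. ZNRF3 averaged 14.8 ± 2.45, 15.5 ± 2.40 and 9.48 ± 1.44 TPM, RNF43 16.2 ± 4.28, 12.1 ± 2.53 and 6.90 ± 1.55 TPM, and AXIN2 9.48 ± 1.29, 6.52 ± 0.990 and 7.46 ± 1.08 TPM. AXIN2 exceeded RNF43 in 0 of 4 libraries of either combination and in 2 of 4 siCo libraries, so those neighbours were not ordered in siCo. FZD6 averaged 5.34 ± 1.29, 5.47 ± 1.68 and 5.31 ± 1.03 TPM and WNT5A 0.283 ± 0.0287, 0.423 ± 0.202 and 0.380 ± 0.139 TPM, the lowest of the 10 in every library.

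A gene's share of its family's TPM is a ratio within a library and does not depend on scaling between libraries. DKK1 held 79.3%, 76.5%, 81.4% and 83.4% of the TPM of DKK1 to DKK4 in siYAP/TAZ#1 libraries, 54.7%, 75.8%, 72.4% and 74.2% in siYAP/TAZ#2 libraries and 87.3%, 86.4%, 85.0% and 88.6% in siCo libraries. Nearly all of the rest was DKK3, and the treated shares all lay below the siCo shares. RNF43 held 51.9% ± 2.14 of the TPM of RNF43 and ZNRF3 with siYAP/TAZ#1, 43.6% ± 3.33 with siYAP/TAZ#2 and 41.9% ± 4.19 in siCo (SD, n = 4 each), with overlap only between siYAP/TAZ#2 and siCo. AXIN2 held 29.5% ± 0.520 of the TPM of AXIN1 and AXIN2 with siYAP/TAZ#1, 20.3% ± 1.36 with siYAP/TAZ#2 and 26.8% ± 1.57 in siCo, so its share lay above siCo with siYAP/TAZ#1 and below it with siYAP/TAZ#2. TCF7L2 held 69.1% ± 1.25, 65.1% ± 4.32 and 73.2% ± 3.33 of the TPM of the TCF/LEF factors, and both treated groups lay below siCo. With siYAP/TAZ#1 the gap was narrow (highest 70.46%, lowest siCo 70.57%), and TCF7L2 itself was not called lower there (log2 fold change 0.02). The TCF7L1 share was 11.3% with siYAP/TAZ#1 and 7.55% in siCo. LGR4 held 94.9% ± 0.814, 95.6% ± 1.01 and 97.0% ± 0.726 of the TPM of LGR4, LGR5 and LGR6, with LGR5 at 0.0142 TPM or less in siYAP/TAZ#1, 0.0150 TPM or less in siYAP/TAZ#2 and 0.0136 TPM or less in siCo. By exact permutation (two-sided), p was 0.0286 for DKK1, AXIN2 and TCF7L2 with both combinations and for RNF43 and LGR4 with siYAP/TAZ#1, the smallest value that 4 libraries against 4 allow. Adjusted over 16 tests these 8 values were 0.0571, so 0 of the 16 passed 0.05. Since p cannot go below 0.0286, no single share could pass this adjustment by itself, however large its shift.

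The other shares overlapped siCo. LRP6 held 20.6% ± 2.09, 17.6% ± 3.92 and 21.7% ± 2.40 of the TPM of LRP5 and LRP6, so LRP5 supplied most of the co-receptor RNA in every group. FZD6 held 10.4% ± 0.897, 11.3% ± 1.93 and 10.9% ± 1.06 of frizzled TPM, well behind FZD2 with 45.2%, 47.7% and 54.1%. WNT5A held 0.365% ± 0.0605, 0.635% ± 0.198 and 0.438% ± 0.123 of Wnt ligand TPM, most of which was WNT7B with 86.6%, 82.8% and 92.1%. Their exact p ran from 0.143 to 0.771.

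**Figure D4:**
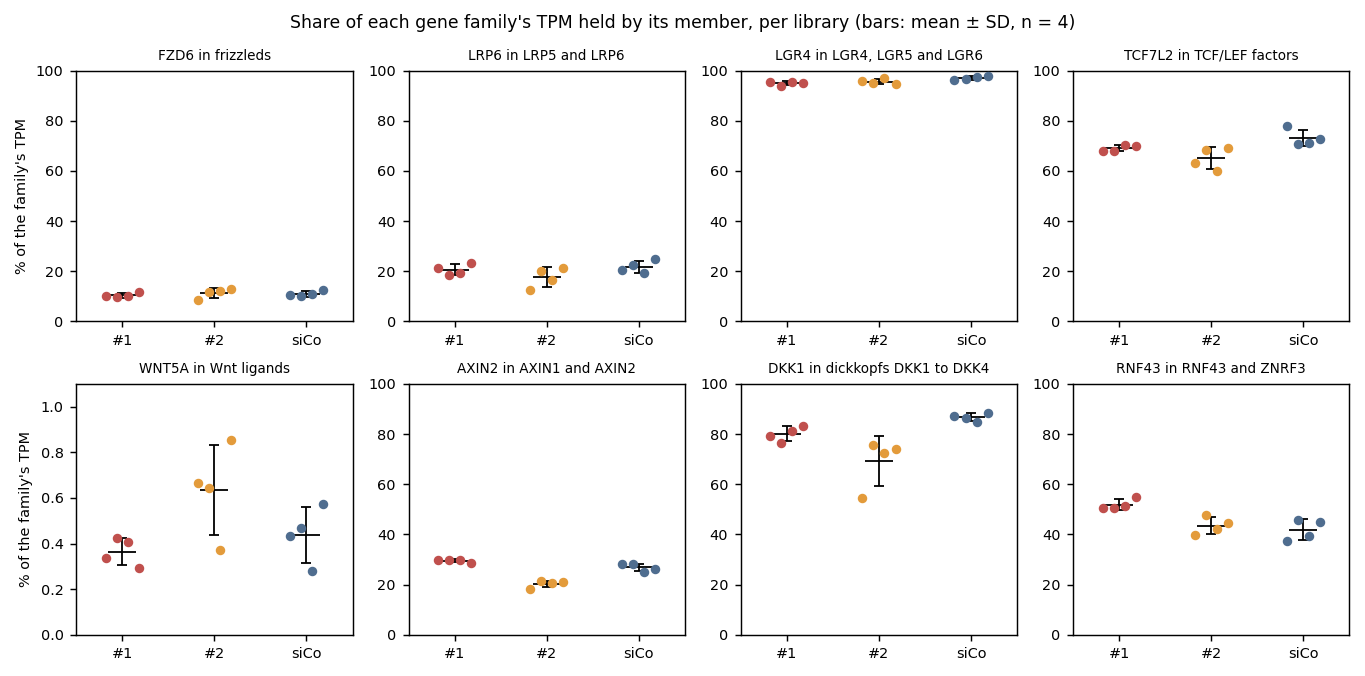
Percent of each family's summed TPM held by its member (vertical axes) in siYAP/TAZ#1, siYAP/TAZ#2 and siCo, with 1 point per library and bars for the mean ± SD (n = 4). The DKK1 and TCF7L2 points of both combinations lie below siCo. For TCF7L2 with siYAP/TAZ#1 the gap is narrow (highest 70.46%, lowest siCo 70.57%). RNF43 lies above siCo with siYAP/TAZ#1 alone, and the WNT5A panel has its own axis since the share stays below 1%.

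Over the 12 libraries, log2 CPM of DKK1, centred on the siCo mean, was most like that of AFF4 (root mean square difference 0.0819), SPAST (0.0854) and BMAL2 (0.0944) among 11644 genes of at least 5 CPM. AFF4, a subunit of the super elongation complex, stood at 101 ± 2.38 CPM with siYAP/TAZ#1, 69.1 ± 6.67 CPM with siYAP/TAZ#2 and 185 ± 8.62 CPM in siCo. The genes most like RNF43 were NEU1 (0.0818), ACOT11 (0.109) and STRA6 (0.115). NEU1, a lysosomal sialidase, stood at 90.4 ± 3.86, 62.9 ± 1.29 and 48.6 ± 2.70 CPM. These likenesses describe levels over libraries that share 3 treatments.

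Among the other receptors of the pathway, 13 of 15 were tested. Beside the counts of this and the following lists, 34.9% of all genes tested were called with siYAP/TAZ#1, 38.2% with siYAP/TAZ#2 and 15.1% between the combinations. Among genes of at least 5 CPM these shares were 50.4%, 53.8% and 24.6%. With siYAP/TAZ#1, 4 rose and 4 fell, with siYAP/TAZ#2, 3 rose and 5 fell, and the median log2 fold changes were -0.03 and -0.24, against 0.14 and -0.06 with library size alone. ROR1, a receptor for WNT5A, fell (-0.28 ± 0.061 with siYAP/TAZ#1 and -0.87 ± 0.062 with siYAP/TAZ#2). RYK, another Wnt receptor, fell (-0.31 ± 0.068 and -0.58 ± 0.068), and FZD2, the frizzled with the most TPM, fell (-0.55 ± 0.091 and -0.66 ± 0.091). PTK7, a pseudokinase co-receptor, rose by 0.35 ± 0.10 and 0.95 ± 0.10. Without replicate 1 of siYAP/TAZ#2, 8 of these receptors were lower with siYAP/TAZ#2 than with siYAP/TAZ#1, against 5 with it.

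Of 22 other ligands and R-spondins, 12 were tested, and 4 rose and 2 fell with each combination. WNT7B, which had most of the Wnt ligand TPM, stood at 303 ± 27.6 CPM with siYAP/TAZ#1, 227 ± 45.1 CPM with siYAP/TAZ#2 and 457 ± 34.4 CPM in siCo, and fell (log2 fold changes of -0.59 ± 0.11 and -1.01 ± 0.11). WNT10B also fell (-0.42 ± 0.16 and -0.79 ± 0.16), with siYAP/TAZ#1 close to the threshold (edgeR adjusted p = 0.0443). WNT9A (0.67 ± 0.14 and 0.43 ± 0.14) and WNT3 (0.20 ± 0.067 and 0.41 ± 0.067) rose. The median of the list was 0.39 with siYAP/TAZ#1 and 0.42 with siYAP/TAZ#2. It rests in part on low genes, since WNT4, WNT5B, WNT11, RSPO2, WNT9B and WNT10A averaged 0.184 to 0.497 CPM in siCo. Of these, WNT4 alone was called with either combination. With library size alone the medians were 0.56 and 0.60. The counts were then 5 higher and 1 lower with siYAP/TAZ#1, and 6 higher and 2 lower with siYAP/TAZ#2. Without replicate 1, 3 ligands were lower with siYAP/TAZ#2 than with siYAP/TAZ#1, against 1 with it.

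All 5 genes of ligand processing and release were tested, with 1 higher and 2 lower with siYAP/TAZ#1 and 3 called with siYAP/TAZ#2, all lower. The enzyme that attaches the lipid Wnt ligands need, PORCN, fell (-1.08 ± 0.067 and -1.20 ± 0.068) to 31.8 ± 2.66 CPM with siYAP/TAZ#1 and 29.3 ± 1.85 CPM with siYAP/TAZ#2, against 67.2 ± 1.36 CPM in siCo. NOTUM, the esterase that removes that lipid, fell (-0.51 ± 0.19 and -1.25 ± 0.20). WLS, which carries ligands to the surface, rose with siYAP/TAZ#1 (0.20 ± 0.071) and was at 0.02 ± 0.071 with siYAP/TAZ#2. TRABD2A, a protease of Wnt ligands, fell with siYAP/TAZ#2 (-0.36 ± 0.12) and was at -0.19 ± 0.11 with siYAP/TAZ#1. With library size alone, 1 gene of the 5 was lower with siYAP/TAZ#1.

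Of 16 other antagonists, 8 were tested, and 4 rose and 1 fell with each combination. SFRP1, SFRP4 and SFRP5 are secreted frizzled-related proteins, which bind Wnt ligands. SFRP4 rose by 1.59 ± 0.21 and 1.52 ± 0.21 from a low level, with 1.87 ± 0.312 CPM with siYAP/TAZ#1, 1.78 ± 0.250 CPM with siYAP/TAZ#2 and 0.613 ± 0.121 CPM in siCo. SFRP5 rose by 0.80 ± 0.10 and 0.63 ± 0.10. SFRP1, the most abundant of them in CPM, fell (-0.60 ± 0.060 and -0.35 ± 0.060), and KREMEN1, a receptor of dickkopf proteins, rose by 0.26 ± 0.092 and 0.41 ± 0.092. The medians were 0.26 and 0.24.

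The 20 genes of beta-catenin and its destruction complex were all tested. With siYAP/TAZ#1, 3 rose and 10 fell, and with siYAP/TAZ#2, 4 rose and 5 fell, with medians of -0.19 and -0.09. These counts moved with the scaling, to 5 higher and 4 lower and to 8 higher and 2 lower with library size alone, where the medians were -0.01 and 0.10. Without replicate 1 of siYAP/TAZ#2 they were 6 higher and 10 lower with that combination. DVL1, which relays the signal from frizzleds, fell (-0.89 ± 0.13 and -1.04 ± 0.13), and the kinase GSK3A fell (-0.30 ± 0.056 and -0.59 ± 0.057). TNKS2, which marks axins for degradation, fell (-0.63 ± 0.076 and -0.23 ± 0.076), and AMER1, which binds APC at the membrane, fell (-0.24 ± 0.073 and -0.39 ± 0.073).

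Of the other TCF/LEF factors and their cofactors, 11 of 12 were tested, and 4 rose and 1 fell with siYAP/TAZ#1, against 4 and 4 with siYAP/TAZ#2. With library size alone the counts were 8 higher and 1 lower, and 5 higher and 3 lower, and the medians of 0.09 and -0.07 became 0.27 and 0.11. Of the Groucho corepressors, TLE4 fell (-0.73 ± 0.069 and -0.47 ± 0.069) and TLE2 rose by 0.65 ± 0.16 and 0.81 ± 0.16. CTNNBIP1, which blocks the binding of beta-catenin to TCF factors, rose by 0.31 ± 0.097 and 0.43 ± 0.097. BCL9, a coactivator of beta-catenin, rose with siYAP/TAZ#2 (0.35 ± 0.053) and was at 0.09 ± 0.053 with siYAP/TAZ#1.

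Other genes known as beta-catenin targets numbered 17, of which 12 were tested, and some stand in the lists above too. With siYAP/TAZ#1, 4 rose and 6 fell, and with siYAP/TAZ#2, 3 rose and 5 fell. Their medians of -0.14 and -0.15 turned to 0.04 and 0.03 with library size alone. Between the combinations, 6 were called, all lower with siYAP/TAZ#2, beside 15.1% of all genes called, 8.2% higher and 6.92% lower. CCND1, the cyclin of early cell cycle entry, stood at 535 ± 16.6 CPM with siYAP/TAZ#1, 325 ± 34.6 CPM with siYAP/TAZ#2 and 759 ± 21.9 CPM in siCo, and fell (-0.51 ± 0.067 and -1.23 ± 0.068). MYC, a growth-promoting transcription factor, fell (-0.69 ± 0.084 and -1.28 ± 0.085), and EPHB2, an ephrin receptor, fell too (-0.55 ± 0.066 and -0.58 ± 0.066). BMP4, a ligand of another pathway, rose by 1.13 ± 0.11 and 1.02 ± 0.11. Of the 8 epithelial and A549 markers, 5 were higher and 1 lower with siYAP/TAZ#1. With siYAP/TAZ#2, 5 were higher and 2 lower (4 higher and 2 lower without replicate 1). With both combinations the higher ones were EPCAM, CDH1, KRT19, AKR1B10 and NQO1. The keratin gene KRT7 was lower with both, and KRT18 with siYAP/TAZ#2. The part of these markers in the values above was not tested.

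**Figure D5:**
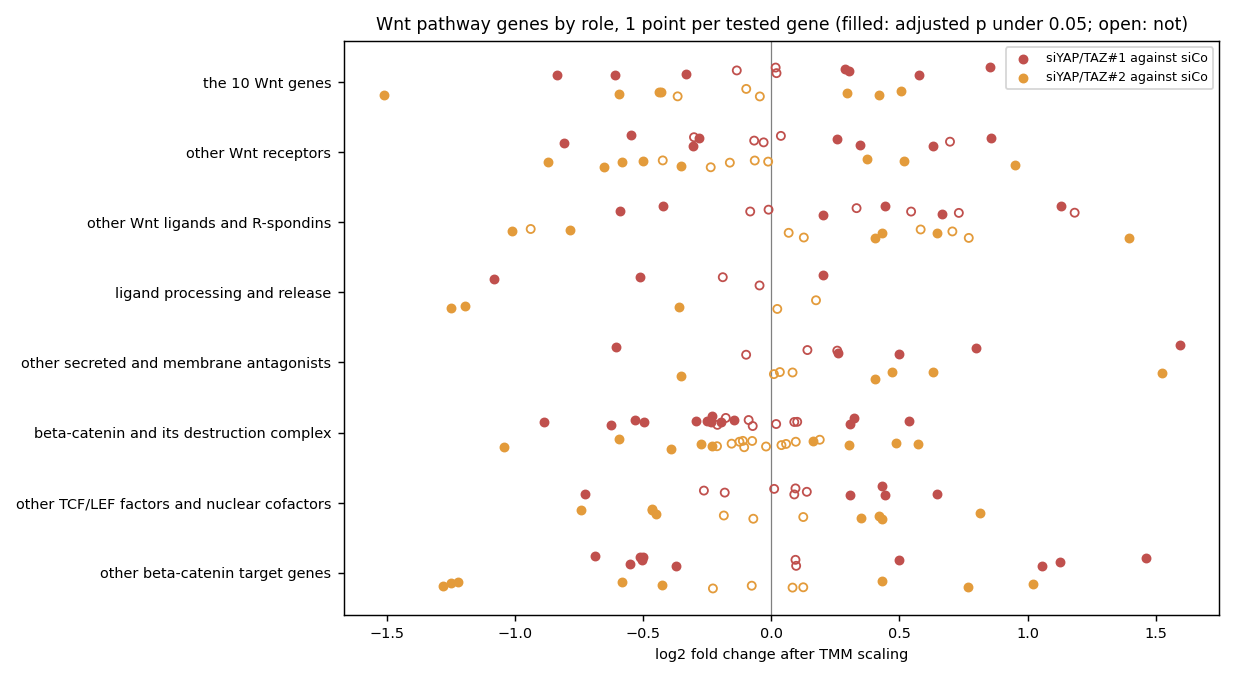
Log2 fold change after TMM scaling (horizontal axis) of each tested gene of the pathway lists (rows), with siYAP/TAZ#1 and siYAP/TAZ#2 against siCo, 1 point per gene, filled where the adjusted p was under 0.05. Filled points stand on both sides of 0 in every list with siYAP/TAZ#1, and with siYAP/TAZ#2 the 5 ligand-processing genes include 3 filled points, all left of 0.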

How the data were processed

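The authors deposited 2 tables per library, one of estimated counts per Ensembl gene, not scaled further, and one of TPM. Tools named in the submitters' processing notes, with no role or order, are kallisto 0.4.6 and Trim Galore 0.6.4, beside the build GRCh38.p13. Other steps, strandedness among them, are not given in the sources used here, so overlapping genes on opposite strands cannot be told apart. Estimated counts were rounded, and edgeR 4.0.16 (R 4.3.3) tested them (filterByExpr defaults, TMM scaling, group as the only term over 12 libraries, quasi-likelihood F test, Benjamini-Hochberg adjustment over 21581 genes). The biological coefficient of variation was 0.105, and the lowest Pearson r of log2 CPM within a group was 0.974. All 12 libraries were kept. All pairs in a group differed by more than sampling noise, but separate preparations of 1 RNA sample can differ so too. The differences therefore do not show how the replicates were separated. A count of 10 is 0.261 to 0.338 CPM, which limits low genes such as WNT5A. The edgeR step was also run on simulated data in which far fewer genes changed than were called here. Its outcome is not reported. Alternatives were RLE factors, library size alone, no filter, DESeq2 1.42.0, length offsets (count over TPM), limma 3.58.1 on log2(TPM + 1) and log2(TPM + 0.1), 2-group fits, a replicate block and leaving out each library. TPM rescaled over coding genes and list counts without a library or with library size alone were added after seeing the data. Family shares were compared by exact permutation. Coordinates are GENCODE v29 on GRCh38, 1-based. The genes named are the 10 members, YAP1, WWTR1, up to 4 genes per pathway list with the smallest adjusted p for the mean of both combinations, 3 genes most like DKK1 and RNF43, family leaders, and a few others said to be chosen after their values were seen. The members and lists were chosen with earlier results of these data known.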

Additional observations from a re-analysis of the deposited data

Results flagged for a closer look

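In siYAP/TAZ#2, replicate 1 lay far from the rest of its group for LRP6 (89.2 CPM) and FZD6 (15.9 CPM), and it held the lowest DKK1 share of dickkopf TPM at 54.7%. In siYAP/TAZ#1, replicate 4 had an AXIN2 share of 28.7% of the TPM of AXIN1 and AXIN2, below 3 libraries that lie close together. These are gaps within a group of 4 that exceed Dixon's critical value at 95%. Of 54 groups of 4 looked at, 4 had such a library, and chance alone gives about 1 in 20.

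The siRNA combinations differed by the test of the difference itself for DKK1 (-0.68), AXIN2 (-0.62), TCF7L2 (-0.45), RNF43 (-0.43) and LRP6 (-0.40), all as log2 fold changes of siYAP/TAZ#2 over siYAP/TAZ#1. YAP1 and WWTR1 were not called different between the combinations (-0.11, adjusted p = 0.367, and -0.02, adjusted p = 0.897, edgeR).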

How the results depend on the processing

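With RLE factors, DESeq2, 2-group fits and the replicate block, each of the 10 genes kept its direction in all 3 comparisons, and the same genes were called, except that DESeq2 added LGR4 with siYAP/TAZ#1. Same-numbered libraries deviated together for replicate 4 in all 3 comparisons (correlations of 0.494, 0.523 and 0.582) but not for every number. The lowest values were 0.055 with siYAP/TAZ#1 against siCo, -0.253 with siYAP/TAZ#2 against siCo and -0.488 between the combinations. Libraries of different numbers reached 0.441, 0.538 and 0.659 in the same comparisons. The numbers were therefore not taken to pair the libraries. The replicate block gave 3561 higher and 4060 lower genes with siYAP/TAZ#1, 4035 and 4231 with siYAP/TAZ#2 and 1747 and 1519 between the combinations, and of the 10 genes again 4 and 3, 3 and 4, and 0 and 5. Leaving out 1 library gave 4 higher and 3 to 4 lower with siYAP/TAZ#1, 3 and 4 with siYAP/TAZ#2, and 0 and 5 to 6 between the combinations. The counts of the 10 genes moved as follows, and the cause was not tested. With siYAP/TAZ#1, lower genes numbered 2 without the low-count filter and with length offsets, and 1 with library size alone and on TPM rescaled over coding genes. They numbered 0 on the deposited TPM (either pseudocount or no filter). Higher genes with siYAP/TAZ#1 numbered 5 with library size alone and 2 on log2(TPM + 1) with or without the filter. With siYAP/TAZ#2, lower genes numbered 3 with library size alone, 1 on the deposited TPM and 2 on rescaled TPM. Higher genes with siYAP/TAZ#2 numbered 4 with library size alone and 2 on unfiltered log2(TPM + 1), where RNF43 was lost. Between the combinations, lower genes numbered 0 on the deposited TPM and 4 on rescaled TPM, where TCF7L2 was lost. Signs turned as follows. With library size alone, LGR4 was 0.039 with siYAP/TAZ#1 and 0.14 with siYAP/TAZ#2 (adjusted p = 0.0476), and LRP6 0.10 with siYAP/TAZ#2. TCF7L2 was called with siYAP/TAZ#1 at 0.19. With length offsets, AXIN2 (-0.0037), LGR4 (0.025) and TCF7L2 (-0.028) turned with siYAP/TAZ#1, LRP6 (0.050) and LGR4 (0.053) with siYAP/TAZ#2, and ZNRF3 (-0.00070) between the combinations, where it was -0.0033 without the low-count filter. On log2(TPM + 1), with or without the filter, LGR4 (0.36) and FZD6 (0.00055) turned with siYAP/TAZ#1, LRP6 (0.44), LGR4 (0.47), FZD6 (0.0092), TCF7L2 (0.10) and WNT5A (0.039) with siYAP/TAZ#2, and FZD6 (0.0086) between the combinations. On log2(TPM + 0.1), LGR4 was 0.38 with siYAP/TAZ#1, LRP6 0.47, LGR4 0.48, FZD6 0.0042, TCF7L2 0.10 and WNT5A 0.10 with siYAP/TAZ#2, and FZD6 0.0046 between the combinations. On rescaled TPM, LGR4 was 0.15 and 0.19 and LRP6 0.17 with siYAP/TAZ#2. Leaving out 1 library turned AXIN2 with siYAP/TAZ#1 (-0.031 to 0.055), ZNRF3 between the combinations (-0.065 to 0.059), LRP6 with siYAP/TAZ#2 (-0.13 to 0.00019) and the FZD6 share of frizzled TPM with siYAP/TAZ#2 (-0.118 percentage points without replicate 4 to 1.33 without replicate 1). LRP5 became lower with siYAP/TAZ#2 than with siYAP/TAZ#1 without replicate 1 (-0.20), and LGR4 was called without replicate 2 of siYAP/TAZ#1 (-0.16). Family shares in CPM gave 0 of 16 past the threshold, as did TPM, and the smallest possible p limits both. Depth limits WNT5A, with at most 70 counts in a library.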

Other observations

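A few pathway genes outside the naming rule, chosen after their values were seen, differed between the combinations. BTRC and TLE3 moved in opposite directions and FZD5 was called lower with siYAP/TAZ#2. BTRC, the substrate receptor that recognises phosphorylated beta-catenin, stood at 20.1 ± 1.16 CPM with siYAP/TAZ#1, 39.8 ± 5.75 CPM with siYAP/TAZ#2 and 28.4 ± 2.30 CPM in siCo (SD, n = 4 each). Its log2 fold change was -0.50 ± 0.098 with siYAP/TAZ#1 and 0.49 ± 0.096 with siYAP/TAZ#2, and the combinations differed by 0.98 ± 0.097 (edgeR, adjusted p = 1.88e-06). TLE3, a Groucho corepressor, stood at 139 ± 9.30, 61.4 ± 6.04 and 103 ± 7.58 CPM. It changed by 0.43 ± 0.076 with siYAP/TAZ#1 and -0.74 ± 0.077 with siYAP/TAZ#2, a difference of -1.18 ± 0.078 (edgeR, adjusted p = 1.83e-08). FZD5, which held more of the frizzled TPM than FZD6, stood at 77.3 ± 4.13 CPM with siYAP/TAZ#1, 53.3 ± 5.83 CPM with siYAP/TAZ#2 and 75.4 ± 5.49 CPM in siCo, and was lower with siYAP/TAZ#2 than with siYAP/TAZ#1 (log2 fold change -0.54 ± 0.077, edgeR, adjusted p = 1.07e-04).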
